A study of Sus scrofa with 3 samples.

Results

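Platelet-derived growth factor (PDGF) ligands and their receptors were described in 3 pig libraries of 3' end counts, 1 each from mesenchymal stem cells of bone marrow (BM-MSC), bone marrow attached cells (BMAC) and peripheral blood mononuclear cells (PBMC). The genes were chosen by name. Of 7 listed symbols, 6 had a row among the 26466 gene symbols of the files, namely the ligands PDGFA, PDGFC and PDGFD, the receptors PDGFRA and PDGFRB, and the receptor-like gene PDGFRL. PDGFB, the fourth ligand, is not analysed here. The labels give no genotype, animal, age, culture or treatment for any of the 3 populations and do not say whether they came from the same animals. With 1 library per population, differences have no replicate check, and the values below are descriptions without p-values. Values in parentheses are 95% intervals for counting error only, which leave out variation between animals, cultures and library preparations.

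PDGF ligands are secreted dimers that bind receptor tyrosine kinases on mesenchymal cells and drive their division, movement and survival. The PDGF-A and PDGF-B chains are cut to their active form inside the cell, whereas PDGF-C and PDGF-D leave it latent and are activated outside by proteases. The alpha receptor, encoded by PDGFRA, binds the A, B and C chains, and the beta receptor, encoded by PDGFRB, binds the B and D chains. Both receptors are used as surface markers of stromal cells in bone marrow, and PDGFRB is also a marker of pericytes, the cells that wrap small vessels.

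The 3 libraries held 17069344 counts in BM-MSC, 15122997 in BMAC and 15445903 in PBMC. Levels are counts scaled to a library total of 1000000 (CPM), where 3 counts make 0.176 CPM in BM-MSC, 0.198 in BMAC and 0.194 in PBMC. Each transcript is counted near its 3' end, so levels are compared between libraries for 1 gene and not between genes. A gene was called different when its log2 ratio, with 1 CPM added to both levels, was at least 2 in size and the library with more of it had 10 CPM and 10 counts or more. That rule is a threshold of size and not a test. Mesenchymal marker genes summed to 13112 CPM in BM-MSC, 11452 in BMAC and 2.91 in PBMC over 8 genes, with TWIST1 and LUM at 0 in PBMC. Leukocyte marker genes summed to 6.62 CPM in BM-MSC, 3.77 in BMAC and 4141 in PBMC over 8 genes, with CD79B at 0 in both marrow libraries and LYZ and MS4A1, whose row overlaps MS4A4A, also at 0 in BMAC. The marker genes thus followed the labelled cell types. In such bulk libraries, fewer cells of a type and less RNA per cell cannot be told apart.

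Both PDGF receptors were far higher in the marrow populations than in blood, where PDGFRB was close to the counting limit. PDGFRB, the beta receptor, had 2595 counts in BM-MSC, 4817 in BMAC and 8 in PBMC. These make 152 CPM (146 to 158) in BM-MSC, 319 (310 to 328) in BMAC and 0.518 (0.224 to 1.02) in PBMC. BMAC stood highest, BM-MSC next, and PBMC far below both, with no overlap of the counting intervals. PDGFRB was thereby 294-fold higher in BM-MSC than in PBMC (149 to 681) and 615-fold higher in BMAC than in PBMC (312 to 1425). Both comparisons use the same PBMC library, whose 8 counts set the width of both intervals. Among genes with at least 10 CPM in either library of a pair, 97 of 11428 had a ratio of BM-MSC to PBMC as high as that of PDGFRB, and 58 of 11371 had as high a ratio of BMAC to PBMC.

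PDGFRA, the alpha receptor, had 950 counts in BM-MSC, 2167 in BMAC and 39 in PBMC. Its levels were 55.7 CPM (52.2 to 59.3) in BM-MSC, 143 (137 to 149) in BMAC and 2.52 (1.80 to 3.45) in PBMC, in the same order as for PDGFRB and again without overlap. The fold over PBMC was 22.0 (16.0 to 31.2) for BM-MSC and 56.8 (41.4 to 80.0) for BMAC. A ratio as high as that of PDGFRA was held by 558 genes in BM-MSC over PBMC and by 283 genes in BMAC over PBMC.

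**Figure D1:**
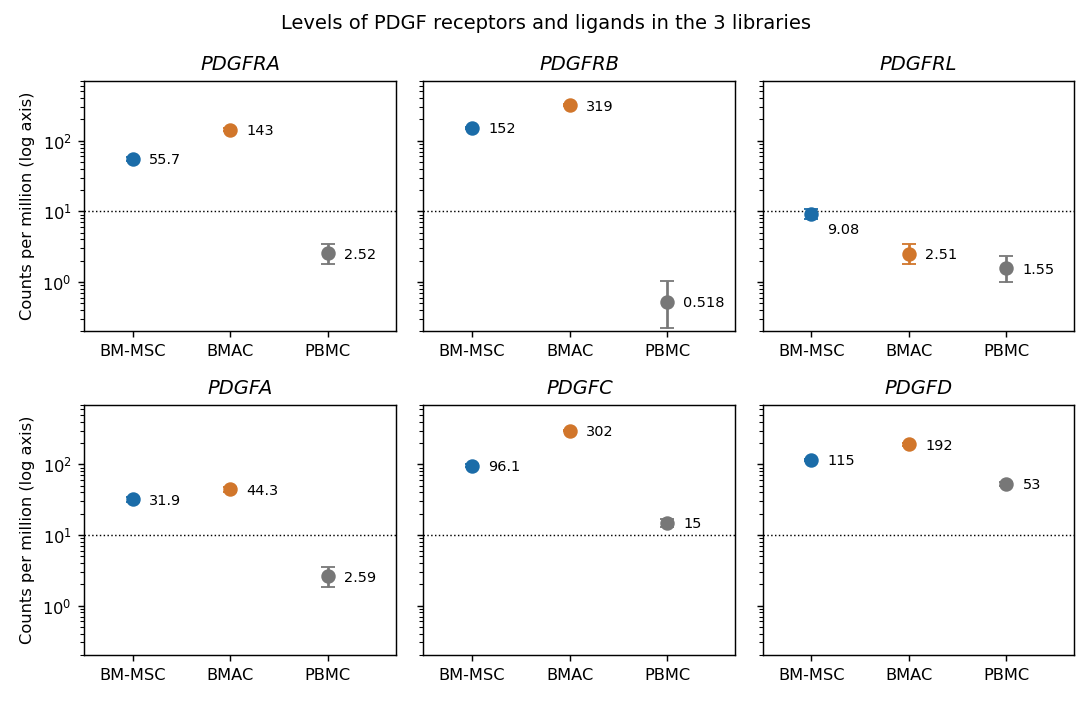
Level of each PDGF receptor (top) and ligand (bottom) in CPM on a log axis, in the BM-MSC, BMAC and PBMC libraries. Points are single libraries, bars are 95% exact Poisson intervals for counting error and the dotted line is 10 CPM; BMAC is highest and PBMC lowest for all genes shown but PDGFRL, which stays below 10 CPM everywhere.

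The balance between the receptors was set against the same balance in another library, which does not depend on how libraries are scaled. For each count of PDGFRA there were 2.73 counts of PDGFRB in BM-MSC (2.53 to 2.95), 2.22 in BMAC (2.11 to 2.34) and 0.205 in PBMC (0.0828 to 0.445). The ratio was 13.3 times that of PBMC in BM-MSC (6.10 to 33.1) and 10.8 times that of PBMC in BMAC (4.98 to 26.9). Between the marrow populations it was 1.23 times as high in BM-MSC as in BMAC (1.12 to 1.35). The marrow libraries therefore lay close together in receptor balance, while the PBMC library had fewer PDGFRB than PDGFRA counts.

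PDGFRL encodes a protein that resembles the ligand-binding part of the PDGF receptors and has no kinase domain. It had 155 counts in BM-MSC, 38 in BMAC and 24 in PBMC, or 9.08 CPM (7.71 to 10.6) in BM-MSC, 2.51 (1.78 to 3.45) in BMAC and 1.55 (0.996 to 2.31) in PBMC. PDGFRL was the 1 gene of the 6 that was highest in BM-MSC, and its BMAC and PBMC intervals overlapped. It was 3.61-fold higher in BM-MSC than in BMAC (2.52 to 5.30), 5.84-fold higher in BM-MSC than in PBMC (3.79 to 9.40) and 1.62-fold higher in BMAC than in PBMC (0.945 to 2.82). PDGFRL failed both parts of the rule and was not called in any pair. It stayed under 10 CPM in every library. Its log2 ratio with 1 CPM added was 1.98 in BM-MSC over PBMC, 0.46 in BMAC over PBMC and 1.52 in BM-MSC over BMAC. With median-of-ratios scaling, or with ribosomal RNA rows left out of the library total, PDGFRL passed 10 CPM and was called higher in BM-MSC than in PBMC.

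All 3 measured ligands were also highest in BMAC and lowest in PBMC, but their distance from blood differed. PDGFA, a ligand of the alpha receptor, had 545 counts in BM-MSC, 670 in BMAC and 40 in PBMC. Its levels were 31.9 CPM (29.3 to 34.7) in BM-MSC, 44.3 (41.0 to 47.8) in BMAC and 2.59 (1.85 to 3.53) in PBMC. The marrow libraries were near each other and both stood well above PBMC, by 12.3-fold (8.94 to 17.5) in BM-MSC and 17.1-fold (12.4 to 24.2) in BMAC.

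PDGFC, a latent ligand of the alpha receptor, had 1641 counts in BM-MSC, 4566 in BMAC and 232 in PBMC. These make 96.1 CPM (91.5 to 101) in BM-MSC, 302 (293 to 311) in BMAC and 15.0 (13.1 to 17.1) in PBMC. PDGFC was above 10 CPM in all 3 libraries, and it was 6.40-fold higher in BM-MSC than in PBMC (5.58 to 7.38) and 20.1-fold higher in BMAC than in PBMC (17.6 to 23.0).

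PDGFD, a latent ligand of the beta receptor, was the PDGF gene that differed least from blood among those above 10 CPM. It had 1965 counts in BM-MSC, 2903 in BMAC and 819 in PBMC. Its levels were 115 CPM (110.1 to 120.3) in BM-MSC, 192 (185 to 199) in BMAC and 53.0 (49.5 to 56.8) in PBMC. PDGFD was 2.17-fold higher in BM-MSC than in PBMC (2.0 to 2.36) and 3.62-fold higher in BMAC than in PBMC (3.35 to 3.92), both short of the 4-fold rule. With TMM or median-of-ratios scaling its log2 ratio of BMAC to PBMC was 2.11 or 2.12 in place of 1.84, past the rule. DDI1, a row that overlaps PDGFD in the RefSeq table of Sscrofa11.1, held 1 count in BM-MSC, 13 in BMAC and 5 in PBMC, and no other row overlaps a PDGF gene there.

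**Figure D2:**
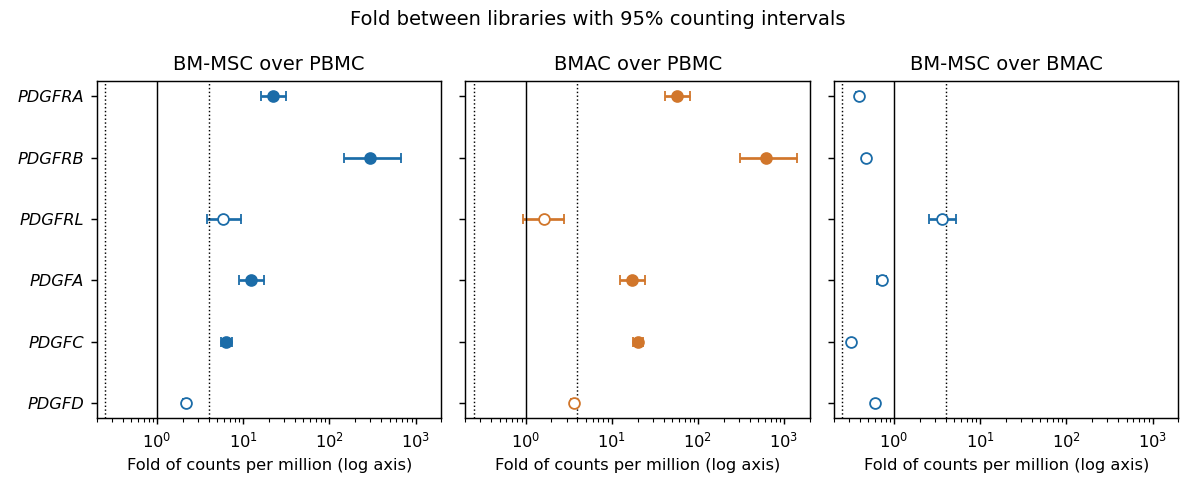
Fold of CPM, on a log axis, for BM-MSC over PBMC, BMAC over PBMC and BM-MSC over BMAC. Points are folds without pseudocount with 95% exact conditional intervals for counting error, filled where the gene passed the rule of size; the solid line is no difference and the dotted lines are 4-fold. PDGFRB lies farthest from 1 in both pairs with PBMC, and no gene is filled between BM-MSC and BMAC.

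By the rule of size, 4 of the 6 genes with a row were called higher in BM-MSC than in PBMC, and the same 4 were called higher in BMAC than in PBMC. They were PDGFA, PDGFC, PDGFRA and PDGFRB, and 0 were called lower. Over all genes tested, 14.3% were called higher and 15.7% lower in BM-MSC than in PBMC, and 14% were called higher and 12.8% lower in BMAC than in PBMC. PDGFA, PDGFRA and PDGFRB reached 10 CPM through the marrow libraries alone, which favours a call towards them, so that the count describes these genes and does not set them apart from others. The median log2 ratio of the 5 genes at 10 CPM or more was 3.20 in BM-MSC over PBMC, against -0.16 over all genes tested. It was 4.24 in BMAC over PBMC, against -0.12 over all genes tested. The same filter favours high medians, so they too describe these genes and do not set them apart.

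Between the marrow populations, the PDGF genes other than PDGFRL were lower in BM-MSC than in BMAC, by less than 4-fold. PDGFC was 3.14-fold lower in BM-MSC (2.97 to 3.32), PDGFRA 2.57-fold (2.38 to 2.78) and PDGFRB 2.10-fold (2.0 to 2.20). PDGFD and PDGFA were 1.67-fold (1.57 to 1.77) and 1.39-fold (1.24 to 1.56) lower in BM-MSC. All 5 genes at 10 CPM or more thus lay on the BMAC side, and all 5 had reached 10 CPM in both libraries. By the rule of size 0 of the 6 were called, where 6.11% of 10303 genes were called in either direction. The median log2 ratio of the 5 was -1.06, against -0.09 over all genes tested, and 55.4% of all genes tested had a ratio below 0. The ratio of PDGFC lay far down this distribution, with 95.3% of genes tested having a ratio as high, followed by PDGFRA with 93.4% and PDGFRB with 89.8%. These 5 directions held under the alternatives that rescale the libraries, with log2 ratios of PDGFRB between -1.06 and -0.99. The alternatives of pseudocount, floor and summing of rows could not reverse them.

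**Figure D3:**
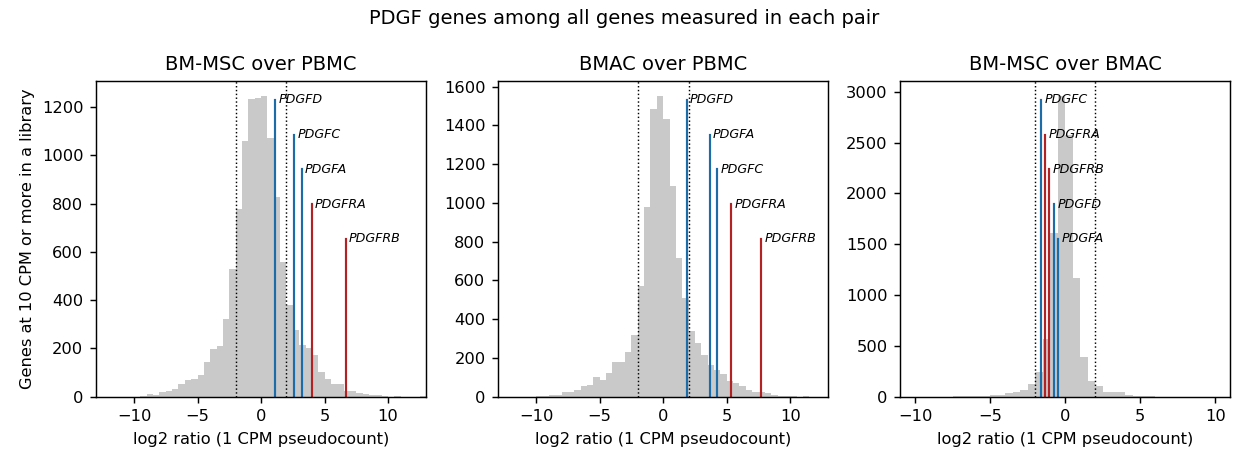
Histogram of log2 ratios over all genes with at least 10 CPM in either library of a pair, with the PDGF receptors (red lines) and ligands (blue lines) marked; the dotted lines are the 4-fold rule and line heights only separate the labels. In both pairs with PBMC, PDGFRB lies in the far right tail and PDGFD closest to the centre, while between BM-MSC and BMAC all 5 genes lie left of 0 and inside the dotted lines.

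The mix of ligand counts differed between the libraries. PDGFA, PDGFC and PDGFD together made 243 CPM in BM-MSC, 538 in BMAC and 70.6 in PBMC. PDGFC held 39.5% of these counts in BM-MSC (38.0 to 41.0), 56.1% in BMAC (55.0 to 57.2) and 21.3% in PBMC (18.9 to 23.8). PDGFD held 47.3% in BM-MSC (45.8 to 48.9), 35.7% in BMAC (34.6 to 36.7) and 75.1% in PBMC (72.4 to 77.6). PDGFA held 13.1% in BM-MSC (12.1 to 14.2), 8.23% in BMAC (7.64 to 8.85) and 3.67% in PBMC (2.63 to 4.96). The share of PDGFC was thus highest in BMAC, that of PDGFA in BM-MSC and that of PDGFD in PBMC. These shares compare libraries and do not rank the ligands, since each gene's 3' end is captured to its own degree.

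**Figure D4:**
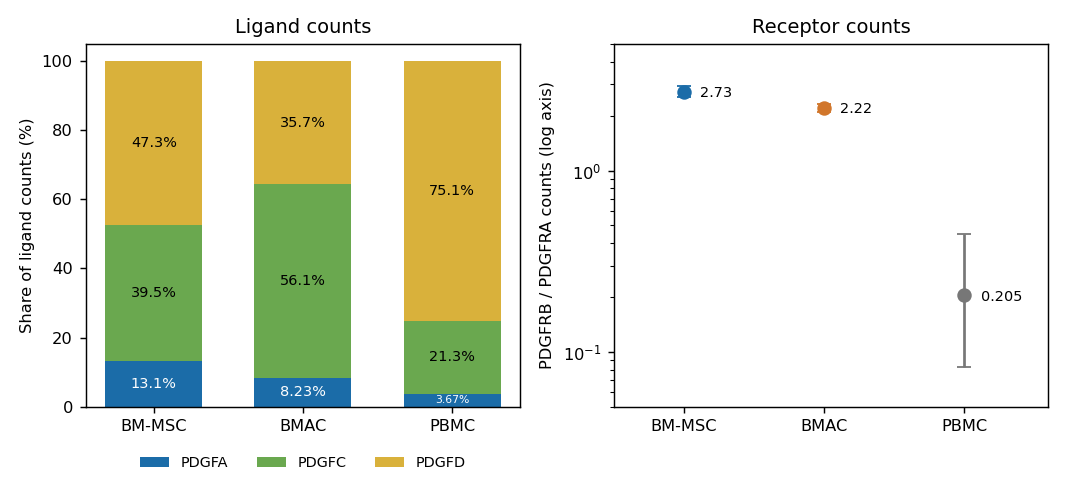
Left, share of the summed counts of PDGFA, PDGFC and PDGFD held by each ligand in BM-MSC, BMAC and PBMC, in percent. Right, counts of PDGFRB for each count of PDGFRA on a log axis with 95% exact intervals for counting error; the ratio is 2.73 in BM-MSC, 2.22 in BMAC and 0.205 in PBMC.

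Genes that process PDGF chains or bind them outside the cell were called higher in the marrow populations more often than lower. Of 16 listed, 11 of 16 measured were called higher in BM-MSC than in PBMC (14.3% over all genes tested) and 0 lower, with a median log2 ratio of 3.70 against -0.16 over all genes tested. In BMAC over PBMC, 11 of 14 measured were called higher (14% over all genes) and 0 lower, with a median of 3.74 against -0.12. All 16 reached 10 CPM in BM-MSC and 14 in BMAC, against 7 in PBMC, so that many were measured through the marrow libraries alone, which favours calls and a high median towards them. Thrombospondin-1, encoded by THBS1, is a secreted matrix glycoprotein and stood at 2544 CPM in BM-MSC, 5103 in BMAC and 14.2 in PBMC. LRP1, an endocytic receptor that also takes part in PDGF receptor signalling, stood at 333 CPM in BM-MSC, 329 in BMAC and 17.6 in PBMC, within 1.01-fold between the marrow libraries (0.974 to 1.05). SPARC, a matrix protein that binds PDGF-B and whose row overlaps LOC110257252, stood at 365 CPM in BM-MSC and 121 in BMAC and had 0 counts in PBMC, a difference from PBMC of at least 1879-fold for BM-MSC and at least 621-fold for BMAC.

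The proteases that activate the latent ligands are named here for that role, after their values were seen. PLAT, tissue plasminogen activator, which activates PDGF-C, stood at 16.2 CPM in BM-MSC, 14.3 in BMAC and 0.518 in PBMC. It was 31.3-fold higher in BM-MSC than in PBMC (15.7 to 73.3) and differed 1.13-fold between BM-MSC and BMAC (0.943 to 1.36). PLAU, the urokinase that activates PDGF-D, stood at 131 CPM in BM-MSC, 36.6 in BMAC and 0.129 in PBMC, and was 3.59-fold higher in BM-MSC than in BMAC (3.27 to 3.94). PLAU thus ran opposite to PDGFD between the marrow libraries, though its value is uncertain because its row overlaps CAMK2G and LOC102160869. FURIN, a convertase that cuts many secreted precursors in the cell, stood at 27.8 CPM in BM-MSC, 27.2 in BMAC and 12.7 in PBMC, and is also named after its values were seen. In BM-MSC over BMAC, 1 of 16 listed genes was called higher and 0 lower, beside 6.11% of all genes tested in either direction. It was A2M, a plasma protease inhibitor that binds growth factors, at 14.4 CPM in BM-MSC against 0.793 in BMAC.

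Adaptors and enzymes that act directly behind the receptors are shared with other receptors and were present in all 3 libraries, 23 of 25 at 10 CPM or more in BM-MSC, 23 in BMAC and 22 in PBMC. In BM-MSC over PBMC, 3 of 25 were called higher and 6 lower, beside 14.3% and 15.7% over all genes tested, with a median log2 ratio of -1.36 against -0.16. In BMAC over PBMC 3 of 25 were called higher and 4 lower, beside 14% and 12.8%, with a median of -1.12 against -0.12. The 3 higher genes were SHC1, whose row overlaps CKS1B, GAB1 and YES1 in both pairs. YES1, a kinase of the SRC family, stood at 57.0 CPM in BM-MSC, 64.0 in BMAC and 2.52 in PBMC. GAB1, a docking protein, stood at 106 CPM in BM-MSC, 105 in BMAC and 21.4 in PBMC. GRB2, the adaptor that links receptors to RAS activation, stood at 23.4 CPM in BM-MSC, 59.4 in BMAC and 219 in PBMC, and was called lower in BM-MSC but not in BMAC. VAV3, a signalling protein of the VAV family, was the 1 gene of 24 measured in this list that was called between the marrow populations, beside 6.11% over all genes tested. It stood at 4.45 CPM in BM-MSC, 164 in BMAC and 391 in PBMC.

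Genes that switch receptor signalling off were called in both directions. In BM-MSC over PBMC, 2 of 13 measured were called higher and 3 lower, beside 14.3% and 15.7% over all genes tested, with a median log2 ratio of -0.57 against -0.16. In BMAC over PBMC 4 of 15 were called higher and 3 lower, beside 14% and 12.8%, with a median of 0.40 against -0.12. With so few genes these counts are not set apart from the shares over all genes. Of 17 listed, 13 reached 10 CPM in BM-MSC and 15 in BMAC, against 8 in PBMC, which favours calls towards the marrow libraries. CBLB, a ubiquitin ligase for activated receptors whose row overlaps LOC110256435, stood at 118 CPM in BM-MSC, 164 in BMAC and 736 in PBMC. SPRY2, an inhibitor of receptor tyrosine kinase signalling, stood at 8.38 CPM in BM-MSC, 16.5 in BMAC and 1.10 in PBMC. ERRFI1, a feedback inhibitor of the epidermal growth factor receptor, was 16.9-fold lower in BM-MSC than in BMAC (15.7 to 18.2), at 43.1 CPM in BM-MSC, 728 in BMAC and 9.91 in PBMC. It was the 1 gene of 15 measured that was called between the marrow populations, beside 6.11% over all genes tested.

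Immediate-early genes are switched on by growth factors within minutes, and also by many other stimuli and by handling. In BM-MSC over PBMC 3 of 12 measured were called higher and 0 lower, beside 14.3% and 15.7% over all genes tested, with a median log2 ratio of 0.94 against -0.16. In BMAC over PBMC 3 of 10 were called higher and 1 lower, beside 14% and 12.8%, with a median of 0.60 against -0.12. The 3 higher genes, FOSL1, EGR1 and IER3, were the same in both pairs. All 3 lay under 10 CPM in PBMC and were measured through the marrow libraries alone. This favours calls and a high median towards the marrow libraries. EGR1, a transcription factor, stood at 72.6 CPM in BM-MSC, 123 in BMAC and 5.70 in PBMC. FOS, the classical early partner of JUN, had the opposite order at 11.1 CPM in BM-MSC, 1.92 in BMAC and 22.1 in PBMC, and was 5.8-fold higher in BM-MSC than in BMAC (3.91 to 8.90). IER3, an early gene with a role in cell survival, was 4.38-fold lower in BM-MSC than in BMAC (4.19 to 4.57), at 154 CPM in BM-MSC, 673 in BMAC and 1.42 in PBMC.

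**Figure D5:**
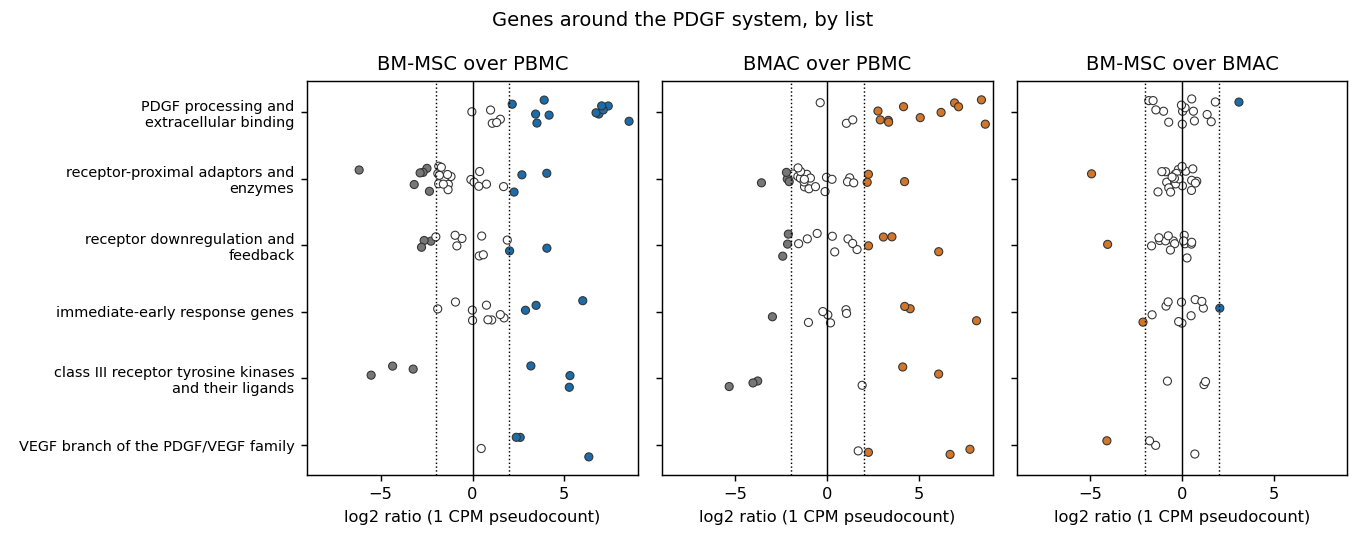
Log2 ratio, with 1 CPM added, of each listed gene with at least 10 CPM in either library of the pair, for 6 lists of genes around the PDGF system. Filled points passed the rule of size in the colour of the higher library (blue BM-MSC, orange BMAC, grey PBMC); all called genes of the processing and binding list lie right of 0 in both pairs with PBMC.

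The receptors nearest in kind to the PDGF receptors were lower in the marrow libraries than in PBMC. KIT, FLT3 and CSF1R belong to the same receptor tyrosine kinase class and serve blood cell lineages. CSF1R, the receptor of macrophage growth factor, had 0 counts in BM-MSC, 2 in BMAC and 691 in PBMC. FLT3 stood at 0.879 CPM in BM-MSC, 1.32 in BMAC and 37.2 in PBMC, and KIT, named after its values were seen, at 1.05 CPM in BM-MSC, 0.397 in BMAC and 18.3 in PBMC. All 3 were called lower in each marrow library than in PBMC, beside 15.7% of all genes tested for BM-MSC and 12.8% for BMAC. A pair of their ligands was called higher in each marrow library than in PBMC. Over all genes tested, 14.3% were called higher in BM-MSC and 14% in BMAC. KITLG, the ligand of KIT, stood at 74.8 CPM in BM-MSC, 130.4 in BMAC and 0.971 in PBMC, and CSF1, a ligand of CSF1R, at 123 CPM in BM-MSC, 53.0 in BMAC and 2.14 in PBMC. IL34, the other ligand of CSF1R, whose row overlaps MTSS1L, stood at 92.8 CPM in BM-MSC, 37.7 in BMAC and 9.39 in PBMC, and was called higher in BM-MSC but not in BMAC. KIT, FLT3 and CSF1R reached 10 CPM in PBMC alone, and the 3 ligands in the marrow libraries alone. This favours calls towards the side where each gene was higher. The calls therefore describe these genes and do not set them apart from others. Of the PDGF genes, PDGFA, PDGFC and both receptors were called higher in both marrow libraries. By library totals, PDGFD and PDGFRL were not called in either pair with PBMC.

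The VEGF genes are the other branch of the family to which the PDGF ligands belong. VEGFC, a growth factor for lymphatic vessels, stood at 162 CPM in BM-MSC, 441 in BMAC and 1.04 in PBMC, the same order as PDGFC. VEGFB, whose row overlaps TRPT1, was instead highest in BM-MSC, at 41.0 CPM against 24.9 in BMAC and 7.06 in PBMC. It was called higher than PBMC in BM-MSC but not in BMAC. VEGFA was 18.1-fold lower in BM-MSC than in BMAC (15.9 to 20.7), at 14.4 CPM in BM-MSC, 261 in BMAC and 1.55 in PBMC. It was the 1 gene of 4 measured in this list that was called between the marrow populations, beside 6.11% over all genes tested. In each pair with PBMC, 3 of 4 measured were called higher in the marrow library and 0 lower. Over all genes, 14.3% were called higher in BM-MSC and 14% in BMAC. Of the 8 listed, 4 reached 10 CPM in each marrow library and 1 in PBMC, which favours calls towards the marrow libraries.

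Other cell types known for PDGF genes were checked by their markers. Of 10 pericyte and smooth muscle genes, 5 reached 10 CPM in BM-MSC, 3 in BMAC and 1 in PBMC, and they summed to 6716 CPM in BM-MSC, 234 in BMAC and 187 in PBMC. The sum in BM-MSC was almost all ACTA2, smooth muscle actin, at 6566 CPM in BM-MSC, 152 in BMAC and 2.33 in PBMC. The sum in PBMC was almost all MCAM, an adhesion protein of mural and other cells whose row overlaps CBL, at 60.0 CPM in BM-MSC, 46.8 in BMAC and 175 in PBMC, and it was not called in any pair. CSPG4, a proteoglycan of pericytes and other mesenchymal cells, stood at 33.7 CPM in BM-MSC, 27.0 in BMAC and 0.324 in PBMC. NOTCH3, a receptor of mural cells whose row overlaps LOC100628051, stood at 30.1 CPM in BM-MSC, 0.992 in BMAC and 1.49 in PBMC. KCNJ8 was at 0 in both marrow libraries, DES was at 0 in BMAC and PBMC, and RGS5 stood at 0.762 CPM in BM-MSC, 1.12 in BMAC and 0.583 in PBMC. These 3 genes, which the size of their values singled out, stood at 1.12 CPM or less in every library. Of 5 genes of this list measured in BM-MSC over BMAC, 2 were called higher and 0 lower, beside 6.11% of all genes tested in either direction. They were ACTA2, 43.2-fold higher (41.5 to 45.1), and NOTCH3, 30.4-fold higher (18.2 to 54.6). MYH11, named after its values were seen, was 4.18-fold higher (3.29 to 5.35). NOTCH3 and MYH11 reached 10 CPM in BM-MSC alone. CSPG4 was 1.25-fold higher (1.10 to 1.42) and MCAM 1.28-fold (1.17 to 1.42). The part of pericytes and smooth muscle cells in the level of PDGFRB was not tested.

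Platelets store PDGF, and their RNA can be carried into mononuclear cell preparations. Of 11 platelet and megakaryocyte genes with a row, 2 reached 10 CPM in each library, and they summed to 73.6 CPM in BM-MSC, 69.6 in BMAC and 54.1 in PBMC. GP1BB was at 0 in all 3 libraries, PPBP was also at 0 in BM-MSC, and GP1BA in BMAC. The gene GP9 gave 45.7 CPM in BM-MSC, 34.1 in BMAC and 18.2 in PBMC of these sums, but its row overlaps RAB43. ITGA2B, the platelet integrin alpha chain, stood at 1.82 CPM in BM-MSC, 0.595 in BMAC and 14.8 in PBMC. ITGB3, its partner beta chain, which other cells also make, had the opposite order at 22.7 CPM in BM-MSC, 28.2 in BMAC and 3.50 in PBMC, and was called higher in both marrow libraries. Endothelial cells are a known source of PDGF-B. Of 8 endothelial genes, 1 reached 10 CPM in BM-MSC, 1 in BMAC and 2 in PBMC. The 8 genes summed to 19.0 CPM in BM-MSC, 33.2 in BMAC and 169 in PBMC, of which PECAM1, also made by leukocytes, held 15.2 CPM in BM-MSC, 27.7 in BMAC and 145 in PBMC. TEK, whose row overlaps LOC102166359, stood at 0.410 CPM in BM-MSC, 0.727 in BMAC and 12.2 in PBMC, and was called lower in both marrow libraries. CLDN5 was at 0 in all 3 libraries and KDR in BMAC. TIE1 was at 0 in BM-MSC, 0.595 CPM in BMAC and 5.05 in PBMC. The part of these cells in the levels of the PDGF genes was not tested.

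Genes with a pattern most like that of each PDGF gene were found by the distance of log2(CPM + 1) over the 3 libraries, leaving out LOC symbols. With 3 libraries such a likeness describes levels only. PDGFRA had PTK7, SH3BP4 and FAM198B as its nearest genes, at distances of 0.24, 0.32 and 0.42. PTK7, a receptor-like protein with an inactive kinase domain, stood at 53.8 CPM in BM-MSC, 168 in BMAC and 2.65 in PBMC. PDGFRB had no gene as close, with CCL2, VEGFC and PCDH17 at 0.63, 0.64 and 0.64. The chemokine CCL2 stood at 154 CPM in BM-MSC, 358 in BMAC and 0 in PBMC. Among the ligands, PDGFA lay nearest to ARSK, TNFSF9 and AMOTL1 at 0.19, 0.26 and 0.27, PDGFC to FSCN1, THRB and LIMCH1 at 0.20, 0.33 and 0.39, and PDGFD to HDLBP, SSR4 and MGMT at 0.21, 0.23 and 0.27. FSCN1, an actin-bundling protein, stood at 90.2 CPM in BM-MSC, 277 in BMAC and 13.7 in PBMC. The rows of FAM198B, HDLBP and SSR4 overlap TMEM144, SEPT2 and IDH3G, so their values are uncertain.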

How the data were processed

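Per the labels' protocols, 500 ng of Trizol-extracted total RNA was made into each QuantSeq library (Lexogen), which is read near the poly(A) tail. The deposited values are raw counts for each gene row: they are whole numbers with a different total in each library. The submitters' processing notes name Bowtie2 and bedtools and give neither a version nor a role. The build, the gene annotation, the use of strand and the handling of reads with several matches were not given in the sources used here.

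All files share 26965 rows under 26466 symbols. For 81 symbols, none of them a PDGF gene, several rows were added up. Each of the 26466 symbols has an entry in NCBI's RefSeq table for Sscrofa11.1, used only for names and for which rows overlap. A row that overlaps another holding at least 25% of its count in a library is named with it. No sequence of these genes was used here.

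CPM is the count over the library total, times 1000000. Printed folds carry no pseudocount and have 95% exact conditional (Clopper-Pearson) intervals, levels have exact Poisson intervals and shares exact binomial ones. All cover counting error only and treat each count as independent. No molecular identifiers are used, so repeated copies of a molecule are not removed and the intervals may be too narrow. A fold against 0 counts is a bound computed with 3 counts in that library. The median of a list is over its members with at least 10 CPM in either library. Computations used Python 3.11.15, pandas 2.3.3 and scipy 1.17.1, and scaling factors came from edgeR 4.0.16 (TMM) and DESeq2 1.42.0 (median of ratios). The computation was checked on simulated counts.

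The PDGF genes and the 11 lists were chosen with earlier results of these data known. All PDGF genes are named, and other genes were taken from the up to 4 called genes of each list with the largest ratio, the measured gene with the smallest, and the 3 genes nearest to each PDGF gene. Genes named outside this rule are marked or stand in a count. Of 131 listed symbols, FLT3LG and PF4 are not analysed here. The alternatives changed scaling, pseudocount, floor and the summing of rows.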

Additional observations from a re-analysis of the deposited data

How the results depend on the processing

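PDGFA, PDGFC, PDGFRA and PDGFRB were called higher than PBMC in both marrow libraries under each of the 8 alternatives except a floor of 50 CPM, where PDGFA fell below the floor and 3 genes were called in each pair. Between BM-MSC and BMAC, 0 of the 6 genes were called under any of the 8. TMM and median-of-ratios scaling moved the median log2 ratio of all genes by 0.39 and 0.42 in BM-MSC over PBMC, by 0.33 and 0.34 in BMAC over PBMC, and by 0.06 and 0.07 in BM-MSC over BMAC. They moved the share of called genes that were higher in BM-MSC than in PBMC to 58.5% and 59.5%, against 47.6% by library totals. In BMAC over PBMC this share was 60.0% and 60.3%, against 52.3% by library totals. A pseudocount of 5 CPM took the log2 ratio of PDGFRB down to 4.83 in BM-MSC over PBMC and 5.87 in BMAC over PBMC, and 0.1 CPM took it up to 7.94 and 9.01, as its PBMC level of 0.518 CPM lies between these pseudocounts.

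Over all genes, those called in BM-MSC over PBMC, BMAC over PBMC and BM-MSC over BMAC numbered 1912, 1718 and 298 with a floor of 50 CPM, against 3424, 3042 and 630, since fewer genes were tested. A pseudocount of 5 CPM gave 374 in BM-MSC over BMAC, since the added CPM shrinks the ratios of genes at low levels. The lists held 8 called genes in BM-MSC over BMAC and 5 with a floor of 50 CPM. No called gene chosen by the naming rule changed direction under these alternatives, of which those of pseudocount and floor cannot reverse a direction. Genes named outside that rule were not recomputed. No paired analysis was possible because each population has 1 library, and for the same reason no replicate could be left out. Depth limits the PBMC values of PDGFRB, PDGFRA, PDGFA and PDGFRL, which rest on 8 to 40 counts.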
